A study of Mus musculus with 65 samples.

Results

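The genes described here were 9 genes of transcription elongation control, taken by name from the 15020 gene symbols of the deposited gene tables: Cdk9, Ccnt1 and Ccnt2, Hexim1 and Larp7, Aff1 and Aff4, and Ell and Ell2. RNA polymerase II pauses shortly after it starts a gene, and the positive elongation factor P-TEFb, made of the kinase Cdk9 and a cyclin T (Ccnt1 or Ccnt2), phosphorylates the polymerase and its pausing factors to release it. Much P-TEFb is held inactive in a particle built on the 7SK RNA, in which Hexim1 inhibits the kinase and Larp7 binds and stabilises the RNA. Active P-TEFb works in the super elongation complex, where the scaffold proteins Aff1 and Aff4 bring it together with the elongation factors Ell and Ell2. Hexim1 was named after its induction by hexamethylene bisacetamide, a compound long used to make murine erythroleukemia cells differentiate.

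Nascent transcription was measured by PRO-seq, a nuclear run-on assay that tags the RNA of engaged polymerases, in murine erythroleukemia (MEL) cells. All 65 samples, controls included, came from the line MEL Mtg16-FKBP-2XHA, in which the corepressor Mtg16 (gene Cbfa2t3) carries a tag that lets the degrader dTAGV1 (250 nM) remove it; whether the line is 1 clone is not stated in the labels. A485 (10 µM) inhibits the acetyltransferases p300 and CBP, and LBH589 (panobinostat, 5 nM) inhibits histone deacetylases. The time course held DMSO, degrader for 15 min, 30 min, 1 h and 2 h, and washout for 30 min, 1 h and 2 h after 2 h of degrader. The A485 series held DMSO and degrader, A485 or both agents for 15 min, 30 min and 1 h. In the LBH589 series, DMSO stood beside LBH589 for 30 min and 1 h. A last set, washed for 30 min or 1 h following 2 h with the degrader, also received LBH589, for a time the labels do not give, and has no DMSO; it is called the LBH589 washout series here. Groups had 3 libraries each, except 2 for degrader 2 h, for A485 30 min and for both agents 30 min, and the gene columns used were 2 for washout 30 min, 1 for washout 1 h and 2 for washout 2 h. Nothing in the labels says that libraries of a group came from separate cultures, so p-values measure the spread between these libraries, which may be technical.

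Summed over all 25857 transcripts of a table, each library held between 7.45 and 62.4 M reads (M, mega). Transcripts of 1 gene can count the same reads again, so these sums exceed the reads in genes. The shallowest groups were A485 for 1 h, at 7.45 to 14.7 M, and both agents for 30 min, at 9.97 and 12.2 M. A pair of libraries in the time course stood apart over the 2000 most variable genes, as deviations from the table's mean. The library labelled degrader 30 min replicate 3 correlated at -0.344 with the other libraries of its group and at 0.938 with washout 30 min; the one labelled degrader 15 min replicate 2 was at -0.542 with its own group and at 0.622 with the washout 1 h library. In the time course, counts of calls are therefore given with and without this pair. A further 5 libraries, used here as degrader 1 h and 2 h as their library names say, carry titles and treatment labels that name A485. In them Ell2 stood at 8395 to 9236 normalized reads, above the 3 DMSO libraries (7436 to 7858), whereas A485 lowered Ell2 in the A485 series, as described below. Nascent Cbfa2t3 RNA, which does not show whether the protein is gone, was higher with the degrader. In the time course its range was 19178 to 28757 reads in DMSO and 153639 to 159397 at 1 h. In the A485 series it was 10211 to 12072 reads in DMSO, 49431 to 52719 after 1 h of degrader and 490.0 to 899 after 1 h of A485 alone. Of the 12 erythroid markers 9 were in the tables, at a median of 792 reads in the DMSO libraries of the A485 series. The globin gene Hbb-bs was the only one of these under 10 there (6.32 reads), while Gata1 stood at 2104 reads. Of 15 markers of granulocytes, macrophages, T cells, B cells and fibroblasts 6 were in the tables, at 0.38 to 31.0 reads, with the T cell gene Cd8a lowest.

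Promoter sequences are shown for the 4 genes with the largest changes below, so that the genes that moved together can be compared. They are the 250 bases before an annotated start, from RefSeq (GRCm38.p6), written 5′ to 3′ on the strand of the gene. Capitals mark the letters of 7 short motifs searched on both strands: the TATA box TATAAA, the CCAAT box, the GC box GGGCGG, the GATA-type motifs AGATAA and also TGATAA, the E-box CACGTG and the KLF-type motif GGGTG, whose reverse reads CACCC. The GGGCGG and GGGTG letters can overlap.
Ell2 (chr13:75707234-75707483, plus strand): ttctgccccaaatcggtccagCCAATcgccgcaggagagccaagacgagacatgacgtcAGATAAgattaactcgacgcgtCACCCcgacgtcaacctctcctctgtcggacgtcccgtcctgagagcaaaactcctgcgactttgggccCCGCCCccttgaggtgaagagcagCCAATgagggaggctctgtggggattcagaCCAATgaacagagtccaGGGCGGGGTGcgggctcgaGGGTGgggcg
Aff1 (chr5:103753912-103754161, plus strand): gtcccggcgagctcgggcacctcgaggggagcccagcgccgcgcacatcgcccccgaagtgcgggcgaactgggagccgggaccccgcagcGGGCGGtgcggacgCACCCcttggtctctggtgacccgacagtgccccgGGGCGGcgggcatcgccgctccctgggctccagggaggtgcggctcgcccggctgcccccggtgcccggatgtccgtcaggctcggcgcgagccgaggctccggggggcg
Hexim1 (chr11:103116075-103116324, plus strand): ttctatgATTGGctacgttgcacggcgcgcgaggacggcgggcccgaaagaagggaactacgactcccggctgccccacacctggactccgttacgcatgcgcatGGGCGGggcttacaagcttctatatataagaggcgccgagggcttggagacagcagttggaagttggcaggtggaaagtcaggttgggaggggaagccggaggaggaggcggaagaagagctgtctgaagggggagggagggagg
Larp7 (chr3:127553350-127553599, minus strand): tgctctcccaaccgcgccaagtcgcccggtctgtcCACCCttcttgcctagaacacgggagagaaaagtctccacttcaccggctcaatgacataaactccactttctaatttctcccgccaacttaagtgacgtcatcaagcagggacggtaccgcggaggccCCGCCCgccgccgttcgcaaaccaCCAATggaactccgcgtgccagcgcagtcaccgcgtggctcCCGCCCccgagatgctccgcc
The windows searched ran 50 bases further, past the start, and all 9 genes had 1, with a further window for Aff1; both Aff1 windows lie inside the annotated gene. GGGCGG was found for 8 of the 9 genes, against 35.7% of all 32851 promoter windows, and the exception was Aff4. CCAAT was found for 5 (Hexim1, Cdk9, Ccnt2, Larp7 and Ell2; 37.4% of all windows), with 3 copies each for Ccnt2 and Ell2. The CACCC letters were found for 5 (57.5%). Among the 9, only Ell2 had AGATAA (11.2%) and only Aff4 had CACGTG (7.15%). The exact letters TATAAA (13.6%) and TGATAA (9.05%) were in none of these windows. Near matches were not counted, such as the letters tatataag in the Hexim1 window, which are close to the TATA box. Their GC content was 61% to 79%, beside a median of 52.7% over all windows.

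All 9 genes were transcribed in DMSO-treated MEL cells, and all passed the filter of a mean of 10 normalized reads in each table. Per kb of annotated gene span in the time course, Ccnt1 gave 225 ± 13.2 normalized reads (mean ± SD, n = 3 DMSO libraries) and the kinase gene Cdk9 183 ± 14.1. The other cyclin T gene, Ccnt2, gave 120.2 ± 6.35 and Ell2 117 ± 3.69, which overlapped within 1 SD. Next came Aff4 at 71.2 ± 3.38, Ell at 67.7 ± 2.53 and the inhibitor gene Hexim1 at 66.8 ± 3.27, whose means overlapped within 1 SD. Aff1 gave 49 ± 0.723, and Larp7 was lowest at 27.1 ± 2.52. In the separately normalized A485 series the highest was again Ccnt1 (131 ± 3.58) and the lowest Larp7 (17.2 ± 1.82). Within the cyclin, AFF and ELL pairs, Ccnt1 was above Ccnt2, Aff4 above Aff1 and Ell2 above Ell per kb in all 3 tables with DMSO. The gene span stands in for the region counted, which the sources used here do not give. For Aff1 both promoter windows lie well inside that span. Its value per kb, and its place below Aff4, therefore depend on the span used, and a shorter span would raise it. In the annotation Larp7 overlaps the miRNAs of the miR-302 and miR-367 group, and Ccnt1, Aff4 and Ell2 overlap other short or uncharacterised genes, whose reads could not be separated here.

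**Figure D1:**
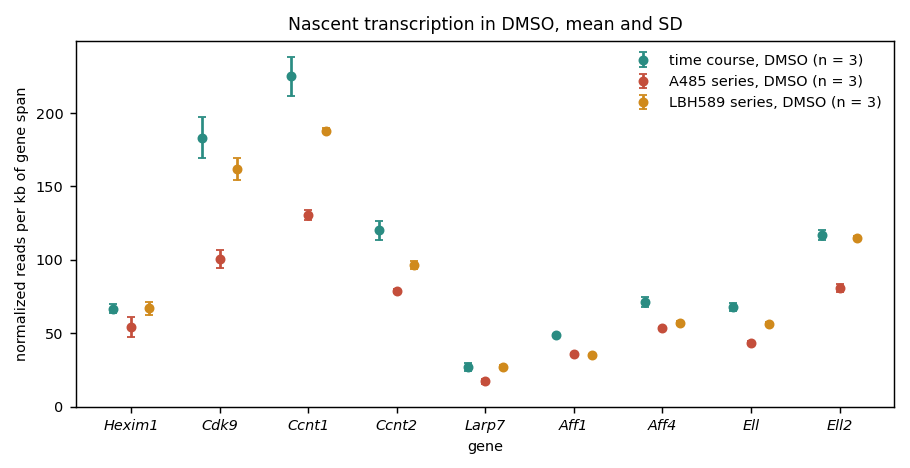
Nascent transcription of the 9 genes in DMSO, in normalized reads per kb of gene span (y axis), for 3 tables normalized separately; points are means and bars 1 SD over 3 libraries. Ccnt1 and Cdk9 lie highest and Larp7 lowest in the time course.

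The A485 series asked what happens to nascent transcription when the acetyltransferases p300 and CBP are inhibited, with or without the Mtg16 degrader. Within 15 min of A485, transcription of Ell2 and Aff1 fell, and by 1 h Ell2 was 3.79-fold and Aff1 3.23-fold lower than in DMSO. Of the rest of the group, Ccnt2 and Aff4 fell at all 3 times by smaller amounts, Cdk9 and Ell were lower at 1 h, and Hexim1 was higher at 30 min. These calls are from limma on log2(value + 1), with Benjamini-Hochberg adjustment over all genes tested. At 15 min, 30 min and 1 h, 4, 6 and 6 of the 9 genes passed an adjusted p of 0.05, against 55.1%, 58.1% and 62.6% of all genes tested. In a bulk measurement such as this, less transcription in every cell and a loss of some cells cannot be told apart. At 1 h the median log2 change of the 9 genes was -0.19, beside 0.0037 over all genes. With the DESeq2 scaling of the deposited values the median gene hardly moved in any comparison. Each change is therefore relative to the typical gene, and a shift common to all genes would not show.

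Ell2 encodes the ELL-family factor that raises the speed of the polymerase inside the super elongation complex. Its normalized read counts were 5156, 5101 and 5466 in DMSO. They were 3051, 3308 and 3548 after 15 min of A485, 1446 and 1421 after 30 min and 1413, 1335 and 1399 after 1 h. No treated library overlapped the controls at any time, and the level at 1 h lay at that of 30 min. Ell2 changed by -0.67 (SE 0.047, adjusted p = 5.09e-14) on the log2 scale at 15 min, by -1.87 (SE 0.053, adjusted p = 3.37e-25) at 30 min and by -1.92 (SE 0.047, adjusted p = 2.27e-27) at 1 h. In comparisons added after the values were seen, its change from 15 to 30 min was -1.20 (adjusted p = 1.58e-18), while the change from 30 min to 1 h was -0.05 (95% interval -0.16 to 0.06). Its paralog Ell changed less. DMSO libraries held 2365, 2269 and 2324 reads and A485 1 h libraries 2125, 1941 and 2251, a change of -0.14 (adjusted p = 0.0101) that was no longer called without A485 1 h replicate 2.

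The scaffold gene Aff1, the longest of the 9 at 163 kb, held 5895, 5925 and 5759 reads in DMSO. A485 took it to 3943, 4196 and 4076 at 15 min, to 3071 and 2917 at 30 min and to 1797, 1745 and 1893 at 1 h. Each time was below the one before it without overlap. The log2 change was -0.53 (SE 0.039, adjusted p = 2.01e-13) at 15 min, -0.97 (SE 0.044, adjusted p = 1.66e-19) at 30 min and -1.69 (SE 0.039, adjusted p = 4.22e-28) at 1 h. The added comparisons gave a further fall both from 15 to 30 min (-0.44, adjusted p = 8.82e-10) and from 30 min to 1 h (-0.72, adjusted p = 6.11e-15). These comparisons each called 2 of the 9 genes, beside 19.8% and 18.2% of all genes; the other in the last was Cdk9, at -0.27 (adjusted p = 0.0242), which edgeR and DESeq2 did not call. Aff4, the scaffold most often found in the super elongation complex, had smaller changes. It went from 3747, 3845 and 3839 reads in DMSO to 3419, 3228 and 3353 at 1 h. Its log2 changes were -0.20, -0.28 and -0.19 at the 3 times, each called.

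Of the P-TEFb subunit genes, Ccnt2 dropped at once and then stayed low, from 2374, 2397 and 2451 reads in DMSO to 1926, 1832 and 1964 at 15 min and 1952, 1837 and 1681 at 1 h. Its log2 change was -0.34 (adjusted p = 1.18e-07) at 15 min and -0.40 (adjusted p = 1.78e-09) at 1 h. Ccnt1 was called lower at 30 min alone, at -0.15 (adjusted p = 0.00134), and its 1 h value was -0.07 (95% interval -0.14 to 0.00). The kinase gene Cdk9 fell by 1 h, from 754, 667 and 690.2 reads to 491, 562 and 556, a log2 change of -0.39 (SE 0.076, adjusted p = 3.63e-05). Neither protein gene of the 7SK particle was called lower at any of the 3 times. Hexim1 rose from 193, 157 and 203 reads in DMSO to 235 and 279 at 30 min, a log2 change of 0.48 (SE 0.14, adjusted p = 0.00474); without A485 30 min replicate 2 it was not called (adjusted p = 0.104). At 1 h its libraries held 261, 217 and 189 reads and overlapped DMSO, and the change was 0.26 (95% interval 0.00 to 0.53). Larp7 gave 0.16 (95% interval -0.04 to 0.36) at 1 h, with overlapping groups.

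**Figure D2:**
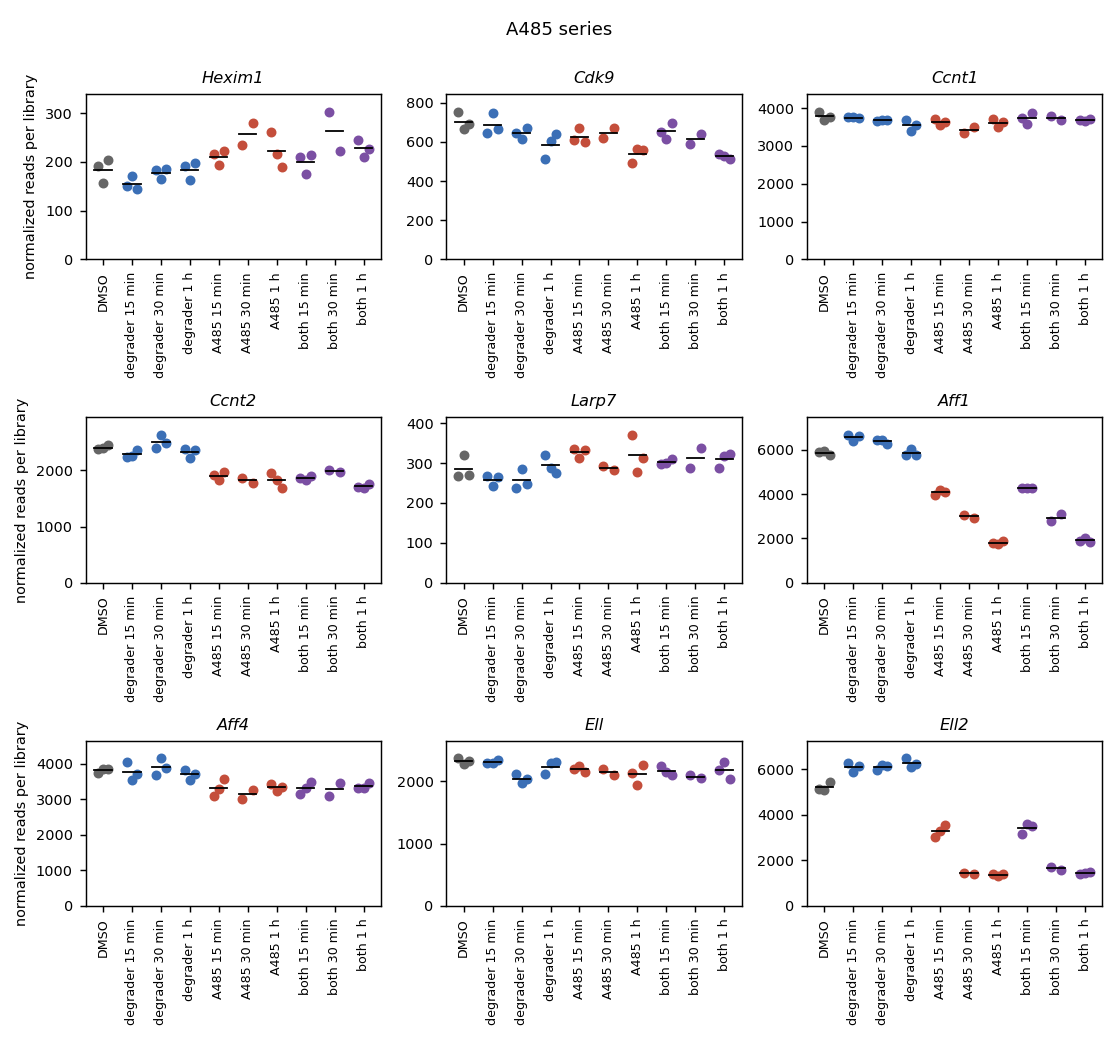
Normalized reads per library (y axis, from 0) of the 9 genes in the 10 groups of the A485 series (x axis); each point is a library and each black line a group mean. Ell2 and Aff1 fall with A485 and with both agents, and the groups with both agents lie close to A485 alone.

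Adding the degrader to A485 gave no called difference from A485 alone among the 9 genes. There were 0 calls at each of 15 min, 30 min and 1 h, where 0.881%, 1.81% and 6.90% of all genes passed. Of these 27 tests by limma 4 had an unadjusted p of at most 0.05, and edgeR and DESeq2 on recovered reads likewise called 0. With both agents for 1 h Ell2 held 1386, 1453 and 1485 reads and Aff1 1876, 2024 and 1848, and their differences from A485 alone were 0.06 (95% interval -0.04 to 0.16) and 0.08 (95% interval 0.00 to 0.16). At 30 min Ell2 held 1702 and 1592 reads with both agents and 1446 and 1421 with A485 alone. That difference was 0.20 (limma, adjusted p = 0.0724), beside 0.22 for the degrader without A485. The Ell2 interaction at 30 min was -0.02 (limma, adjusted p = 0.908). In cells also given the degrader, the added comparison of both agents with the degrader at 1 h called 5 of the 9 genes against 62.6% of all genes: Ell2 was lower at -2.12 (adjusted p = 1.23e-28), Aff1 at -1.61 (adjusted p = 1.34e-27), Ccnt2 at -0.43 (adjusted p = 3.26e-10) and Aff4 at -0.14 (adjusted p = 0.0268), and Hexim1 rose by 0.31 (adjusted p = 0.0366). The Aff4 call was lost without degrader 1 h replicate 4 or 6 or both 1 h replicate 1 or 2, and the Hexim1 call without degrader 1 h replicate 5 or both 1 h replicate 1 or 3. Tested as an interaction, the degrader response with A485 differed from that without it for 0, 1 and 0 of the 9 genes at the 3 times, against 5.32%, 8.20% and 11.5% of all genes. At an unadjusted p under 0.05 there were 1, 2 and 3, and edgeR called 0 at each time. The call was Ccnt1 at 30 min, by 0.18 (SE 0.055, adjusted p = 0.0417); in 9 of 20 alternatives, most of them leaving out a single library, it was lost. For Ell2 at 1 h the interaction was -0.20 (95% interval -0.33 to -0.06), with an adjusted p of 0.0514.

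A wider list of 45 elongation and pausing genes, of which 43 were in the tables, held both directions under A485. At 1 h 15 rose, 13 fell and 15 did not pass, with a median log2 change of 0.04, while the share of all genes called was 62.6%. The largest falls were Hexim2 (-0.78), a paralog of Hexim1 and its neighbour on the chromosome, Mllt3 (-0.78), a chromatin reader of the super elongation complex, and Supt4a (-0.71), a subunit of the pausing factor DSIF. The ELL partner gene Eaf1 was at -0.70, Aff3 at -0.69 and Mllt1 at -0.26. The largest rises were Paf1 (0.67), of the PAF elongation complex, the other ELL partner Eaf2 (0.57) and Ice2 (0.42), of the little elongation complex. Each of these log2 changes had an adjusted p of at most 0.05 in limma. At 15 min 12 of the 43 rose and 11 fell, with Eaf1 lowest at -0.94; at 30 min 17 rose and 8 fell.

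Transcription of Ell2 was higher with the Mtg16 degrader alone. In the A485 series the degrader called 2, 3 and 3 of the 9 genes at 15 min, 30 min and 1 h, against 16.7%, 20.6% and 25.6% of all genes. Ell2 was the one called at all 3 times: DMSO libraries held 5156, 5101 and 5466 reads, and the degrader libraries 6268, 5874 and 6133 at 15 min, 5963, 6203 and 6151 at 30 min and 6488, 6092 and 6216 at 1 h. Every degrader library was above every control, and the log2 change was 0.22 (SE 0.047, adjusted p = 0.00114), 0.22 (SE 0.047, adjusted p = 0.000818) and 0.26 (SE 0.047, adjusted p = 8.52e-05) in turn. Aff1 rose at 15 min, from 5895, 5925 and 5759 to 6666, 6418 and 6641 reads (0.17, adjusted p = 0.00265), and at 30 min (0.12, adjusted p = 0.0252), and stood at 0.00 (95% interval -0.08 to 0.08) at 1 h. The 30 min call was lost without DMSO replicate 4 or 6 or degrader replicate 4 or 5. Ell was lower at 30 min, at 2107, 1971 and 2035 reads against 2365, 2269 and 2324 (-0.19, adjusted p = 0.00408). At 1 h Cdk9 was lower at -0.27 (adjusted p = 0.00828) and Ccnt1 at -0.10 (adjusted p = 0.0382). The Cdk9 call was lost without DMSO replicate 4 or degrader replicate 4, and the Ccnt1 call without DMSO replicate 4 or 6 or degrader replicate 5 or 6. Hexim1 was not called, at 0.00 (95% interval -0.26 to 0.26) at 1 h.

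In the time course the degrader called 0, 1, 0 and 0 of the 9 genes at 15 min, 30 min, 1 h and 2 h, against 6.93%, 13.9%, 11.3% and 9.39% of all genes. By limma, 2, 2, 1 and 0 of the 9 had an unadjusted p under 0.05, and edgeR and DESeq2 on recovered reads also called 0, 1, 0 and 0. The call was Aff1 at 30 min, 0.30 (SE 0.068, adjusted p = 0.00781), which was lost when the 2 groups compared were fitted alone (adjusted p = 0.153). Its libraries held 8929, 9334 and 11396 reads at 30 min of degrader, the highest in 1 of the libraries that stood apart (replicate 3), and the change without that pair was 0.19 (adjusted p = 0.000531). Without the pair of libraries that stood apart, each of the 4 times called 3 of the 9, where 27.8%, 21.1%, 30.2% and 31.1% of all genes passed. Ell2 and Aff1 were called at each time. The Ell2 change without that pair was 0.31 (adjusted p = 6.8e-06) at 15 min, 0.33 (adjusted p = 3.05e-06) at 30 min, 0.27 (adjusted p = 6.61e-06) at 1 h and 0.18 (adjusted p = 0.00208) at 2 h. Its libraries held 7449, 7436 and 7858 reads in DMSO and 9236, 8946 and 9170.4 at 1 h of degrader, which did not overlap. Aff1 was at 0.18 (adjusted p = 0.000821) at 15 min, 0.12 (adjusted p = 0.0102) at 1 h and 0.12 (adjusted p = 0.0186) at 2 h without the pair. The third call was Aff4 at 15 min (0.25, adjusted p = 0.00121), Cdk9 at 30 min (-0.20, adjusted p = 0.0346), Hexim1 at 1 h (-0.26, adjusted p = 0.0488) and Aff4 at 2 h (-0.16, adjusted p = 0.0251).

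From the wider list, 2, 3, 3 and 3 of 43 genes rose at the 4 times of degrader in the time course and 0 fell. Without the pair of libraries that stood apart 5, 4, 5 and 10 rose and 4, 1, 2 and 3 fell. Eaf1 rose by 0.39, 0.50, 0.58 and 0.60 on the log2 scale, and Hexim2 by 0.50, 0.63, 0.71 and 0.52. Without that pair Eaf1 was at 0.29 at 15 min and Hexim2 at 0.49 at 30 min, both called. Aff3, of the AFF scaffold family, rose by 0.26, 0.26 and 0.40 at 30 min, 1 h and 2 h, and by 0.18 at 30 min without the pair. In the A485 series it was lower at first, at -0.25 at 15 min and -0.18 at 30 min, and was at 0.09 at 1 h, each called; the difference between the series was not tested. In the A485 series Eaf1 rose too, by 0.31, 0.42 and 0.46 at its 3 times, whereas Hexim2 was not called there. At 15 min in that series 2 of the 43 rose and 5 fell, and at 30 min 2 rose and 2 fell. At 1 h 5 of the 43 rose and 4 fell, the largest fall being Ints6 (-0.26), a subunit of the Integrator complex. The pausing factor gene Nelfb (-0.17) and the kinase gene Cdk12 (-0.15) fell as well, and Eaf2 (0.30), Mllt3 (0.18), Mllt1 (0.18) and Aff3 rose. Mllt3 had been higher at the earlier times of that series, by 0.44 at 15 min and 0.40 at 30 min, both called.

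**Figure D3:**
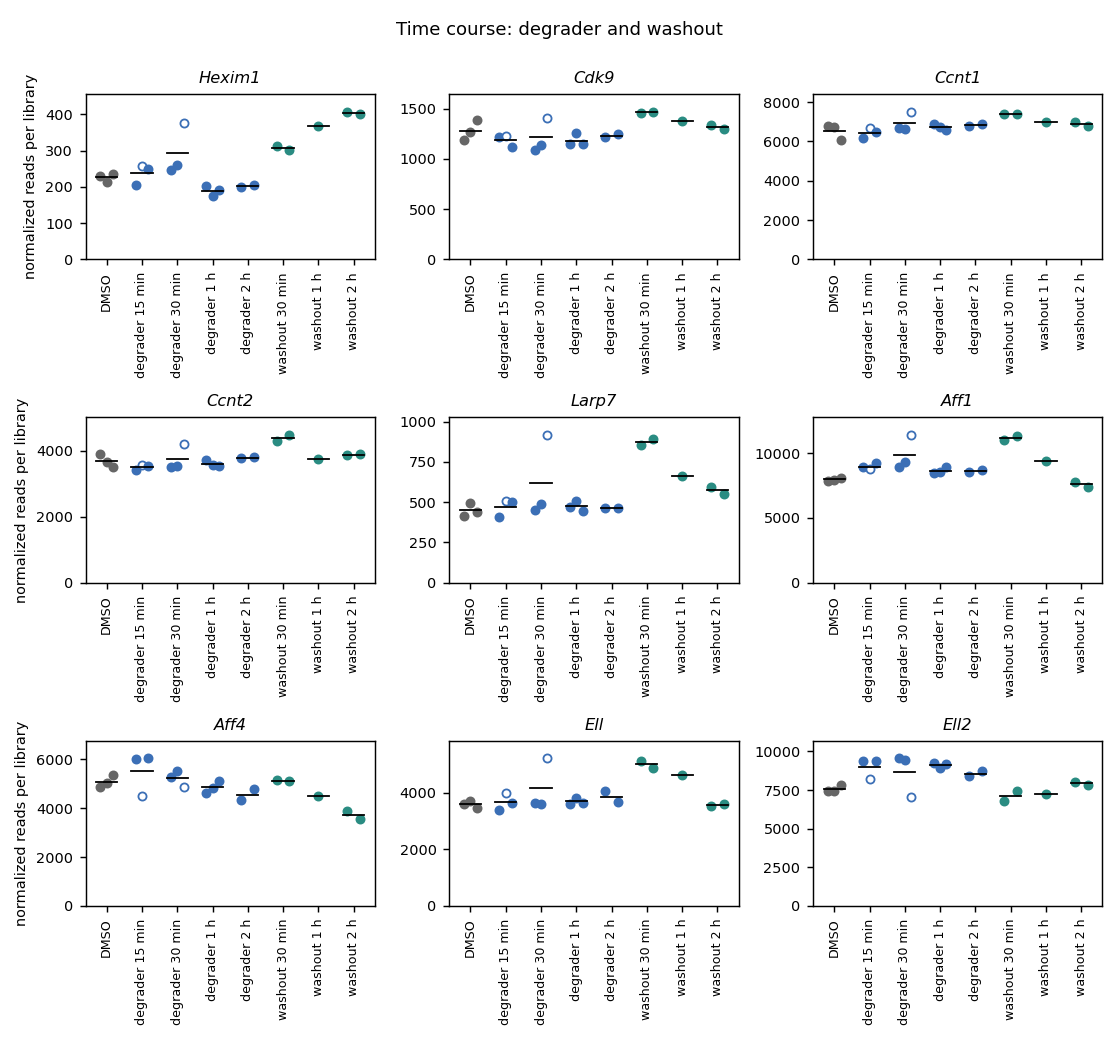
Normalized reads per library (y axis, from 0) of the 9 genes in the 8 groups of the time course (x axis); points are libraries, black lines group means, and open points the 2 libraries that stood apart. Hexim1 is highest at washout 2 h, Larp7 at washout 30 min, and the open point of degrader 30 min lies at the washout 30 min level for both Larp7 and Ell.

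Hexim1 rose when the degrader was washed out. Its libraries held 199 and 206 reads after 2 h of degrader, 313 and 302 after 30 min of washout, 367 in the single 1 h column and 407 and 402 after 2 h. All washout values lay above the DMSO libraries, which held 230.5, 215 and 236. No group was washed without having had the degrader. The effect of the wash and of the added time therefore cannot be told apart from that of removing the degrader. Against degrader 2 h, Hexim1 rose by 0.60 (SE 0.17, adjusted p = 0.0258) at 30 min and by 0.99 (SE 0.17, adjusted p = 0.00181) at 2 h, where it was 1.99-fold higher. Against DMSO it was higher at 2 h by 0.83 (SE 0.16, adjusted p = 0.00097). The 2 h calls held in all 15 and 17 alternatives run. Across all 12709 genes with a length, the log2 change at 2 h against degrader 2 h had a Spearman rho of -0.43 with gene span, so that short genes tended to be higher. Hexim1 is the shortest of the 9 at 3.4 kb, and the part of gene length in its change was not tested. No other of the 9 genes was called in washout 2 h against degrader 2 h, where 17.3% of all genes were; without the pair of libraries that stood apart, 4 were called against 43.1%. These were Hexim1 (0.99, adjusted p = 1.88e-06), Larp7 (0.31, adjusted p = 0.0192), Aff1 (-0.19, adjusted p = 0.000892) and Aff4 (-0.29, adjusted p = 0.000369).

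At 30 min of washout 4 of the 9 genes rose against degrader 2 h and 0 fell, where 24.3% of all genes were called and 10.5% rose. Larp7, which protects the 7SK RNA, rose most, from 462 and 462 to 851 and 889 reads, a log2 change of 0.91 (SE 0.23, adjusted p = 0.0167). Its level was 663 at 1 h and 595 and 553 at 2 h of washout, and the added comparison of washout 2 h with 30 min gave -0.60 (adjusted p = 0.0437), a call lost when any 1 of its 4 libraries was left out. Aff1 followed the same course, from 8575 and 8735 reads up to 11033 and 11314 (0.37, adjusted p = 0.0146) and down to 7786 and 7415 at 2 h (-0.56 against 30 min, adjusted p = 0.000199). Ell rose from 4055 and 3679 to 5148 and 4902 reads (0.38, adjusted p = 0.0458) and was back at 3557 and 3598 at 2 h (-0.49, adjusted p = 0.00708). For Hexim1, Larp7, Aff1 and Ell each of these 30 min calls was lost when any 1 of the 4 libraries was left out, which leaves a group with 1 library, assumed to vary like the others. Without the pair of libraries that stood apart, all 9 genes were called at 30 min, where 51.0% of all genes were: 8 were higher and Ell2 was lower at -0.27 (adjusted p = 4.09e-05). Ell2 held 8395 and 8725 reads at 2 h of degrader and 6777 and 7457 at 30 min of washout.

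Aff4 ended below its control level. It held 4868, 5012 and 5337 reads in DMSO, 5135 and 5101 at 30 min of washout and 3874 and 3576 at 2 h, the last below every DMSO library. Its log2 change at 2 h was -0.45 (SE 0.1, adjusted p = 0.00357) against DMSO and -0.46 (adjusted p = 0.00444) against washout 30 min. The call against DMSO was lost without the second washout 2 h column (adjusted p = 0.054). Over all genes with a length, the change at washout 2 h had a Spearman rho with gene span of -0.363 against DMSO and -0.31 against washout 30 min. Long genes thus tended to be lower at 2 h. The part of gene length in the falls of Aff4, and of Aff1 and Ell from 30 min, was not tested. Against DMSO 2 of the 9 genes were called at washout 2 h, Hexim1 and Aff4, beside 38.5% of all genes. Without the pair of libraries that stood apart 3 were, with Larp7 (0.35, adjusted p = 0.00301) added, beside 59.2%. The cyclin and kinase genes were not called. At washout 2 h against DMSO, Cdk9 was at 0.04 (95% interval -0.17 to 0.25), Ccnt1 at 0.08 (95% interval -0.05 to 0.21) and Ccnt2 at 0.08 (95% interval -0.08 to 0.23). Of the wider list, 10 of 43 rose and 2 fell in that comparison, and 18 rose and 3 fell without that pair. Hexim2 was at 0.66, Paf1 at 0.65, the elongin gene Elob at 0.65 and Mepce, which caps the 7SK RNA, at 0.63, with Eaf1 at 0.44 and Mllt1 at 0.33; the falls were Mllt3 (-0.72) and Eaf2 (-0.51). The added comparison of washout 2 h with 30 min called 4 of the 9 genes, beside 45.4% of all genes, and 7 against 63.4% without that pair.

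Deacetylase inhibition with LBH589 split the group. At 1 h the scaffold genes Aff1 and Aff4 and the factor gene Ell rose, while Larp7, Ell2, Ccnt2, Cdk9 and Ccnt1 fell, and Hexim1 did not pass. In all, 6 of the 9 genes were called at 30 min and 8 at 1 h, against 39.7% and 67.0% of all genes. The 8 calls at 1 h held in each of the 16 alternatives run.

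Larp7 had the largest change of the 9 genes at 1 h of LBH589, and Ell2 at 30 min. Its libraries held 463, 439.6 and 457 reads in DMSO, 387, 338 and 365 at 30 min and 207, 281 and 244 at 1 h, with no overlap between the 3 groups. The log2 change was -0.32 (SE 0.087, adjusted p = 0.00422) at 30 min and -0.90 (SE 0.087, adjusted p = 2.81e-10) at 1 h, a 1.87-fold fall, and the added comparison of 1 h with 30 min gave -0.58 (adjusted p = 1.63e-06). The other 7SK particle gene among the 9, Hexim1, held 211, 230.1 and 242 reads in DMSO and 226, 193 and 219 at 1 h. Its change was -0.10 (95% interval -0.31 to 0.11). Of the P-TEFb genes, Cdk9 went from 1174, 1149.7 and 1073 reads to 978, 966 and 970.2 at 1 h (-0.22, adjusted p = 0.000484). Ccnt2 went from 3001, 2868 and 3010.1 to 2417, 2558 and 2535 (-0.24, adjusted p = 1.36e-06), and Ccnt1 from 5505, 5404 and 5457 to 4833, 4934 and 5142 (-0.13, adjusted p = 0.00062). The Ccnt2 call at 30 min (-0.10, adjusted p = 0.0293) was lost in edgeR and DESeq2, and without DMSO replicate 7 or 9 or LBH589 30 min replicate 2.

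The members of the super elongation complex did not move as 1 group. Aff1 rose from 5790.2, 5859 and 5660.2 reads to 6473, 6213 and 6462 at 30 min and 6739.8, 6761 and 6894 at 1 h, a log2 change of 0.24 (SE 0.031, adjusted p = 1.07e-07) at 1 h. Aff4 rose too, from 3967, 4111 and 4086 to 4453, 4848 and 4843 (0.22, adjusted p = 4.4e-06), and so did Ell, from 3047, 3011 and 2964 to 3717, 3425 and 3532 (0.24, adjusted p = 8.52e-07). Ell2 fell, from 7540.3, 7454 and 7410.2 reads in DMSO to 5271, 5611 and 5399 at 30 min, and stood at 5737, 6000.4 and 6041 at 1 h. Its log2 change was -0.46 (SE 0.033, adjusted p = 3.72e-12) at 30 min and -0.33 (SE 0.033, adjusted p = 3.37e-10) at 1 h, and from 30 min to 1 h it rose by 0.13 (adjusted p = 0.00141). That added comparison called 6 of the 9 genes, beside 56.9% of all genes. Of the wider list, 12 of 43 rose and 20 fell at 1 h, with a median log2 change of -0.08 beside -0.0032 over all genes. The histone chaperone gene Ssrp1 was at -0.67, Zc3h8, of the little elongation complex, at -0.58, the elongation factor gene Iws1 at -0.56 and Mepce at -0.35; Mllt1 was at -0.34 and Aff3 at -0.21. Paf1 rose most, by 0.80, ahead of Ctr9 (0.50), its partner in the PAF complex, the pausing factor gene Nelfe (0.40) and Eaf2 (0.40).

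**Figure D4:**
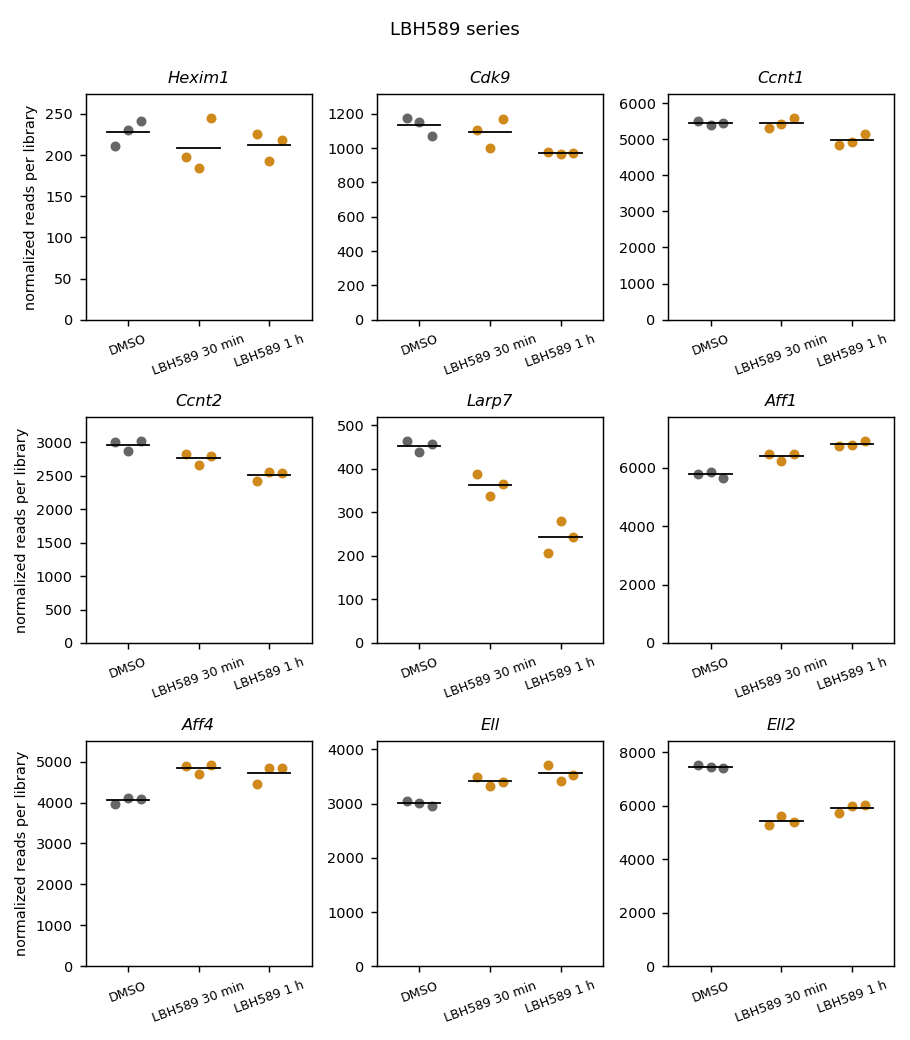
Normalized reads per library (y axis, from 0) of the 9 genes in DMSO and after 30 min and 1 h of LBH589 (x axis, 3 libraries each); black lines are group means. Larp7 steps down at each time, Ell2 drops by 30 min, and Aff1, Aff4 and Ell lie above DMSO.

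In the LBH589 washout series, 1 h of washout differed from 30 min for 3 of the 9 genes, against 23.3% of all genes. Aff1 was higher at 1 h, at 4703, 4807 and 4871 reads against 3965, 3852 and 4016 (0.28, adjusted p = 0.0125), and so was Ell, at 2253, 2479 and 2527 against 2042, 2049 and 2019.6 (0.25, adjusted p = 0.0361). Ell2 was lower, at 3225, 3487 and 3422 against 4031, 4430.3 and 4136 (-0.31, adjusted p = 0.0126). Larp7 held 252, 269 and 127 reads against 331, 337 and 290.2, below without overlap, with a log2 change of -0.63 (adjusted p = 0.0884) that did not pass. Leaving out 1 library at a time gave -0.83 to -0.29: it passed without washout 1 h replicate 2, and was nearest 0 without replicate 3 of that group, the library at 127 reads. Hexim1, which rose during washout without LBH589, held 141, 154 and 154 reads at 1 h and 150.0, 139 and 145 at 30 min, a change of 0.05 (95% interval -0.27 to 0.37); the 2 washout settings lie in separate tables and their difference was not tested. Each of the 3 calls was lost without washout 30 min replicate 2 or 3, those of Aff1 and Ell also without replicate 1, and that of Ell without washout 1 h replicate 2.

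**Figure D5:**
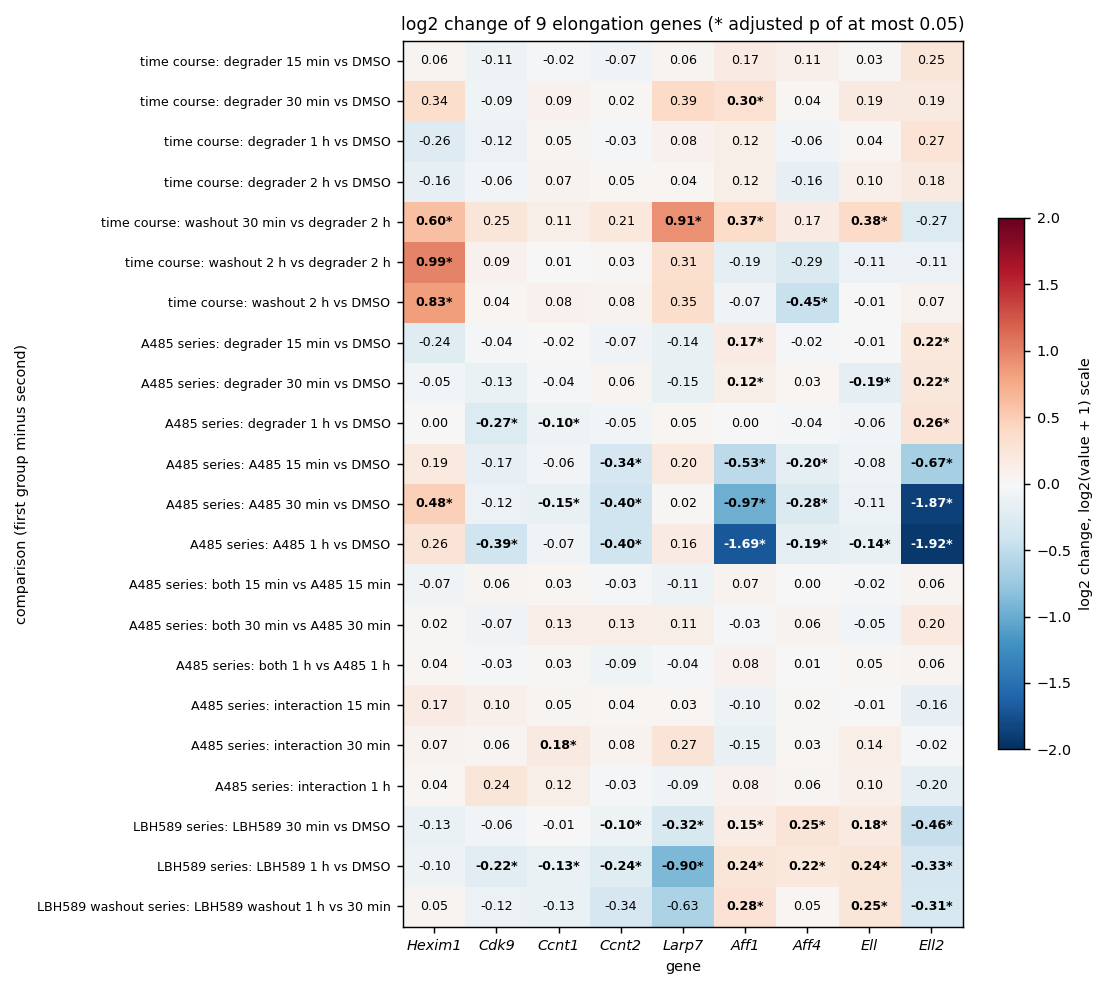
The log2 change of each of the 9 genes (columns) in the 22 comparisons (rows), first group minus second on the log2(value + 1) scale; colour and printed value give the change, and a star an adjusted p of at most 0.05 in limma. The darkest cells are Ell2 and Aff1 under A485, and the strongest rises are Hexim1 and Larp7 in washout.

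The response of each paralog pair was compared as a ratio within each library. The log2 ratio of Ell2 to Ell went from 1.18 ± 0.055 in DMSO to -0.60 ± 0.074 after 1 h of A485 (mean ± SD, n = 3 libraries each), and from 1.31 ± 0.0084 in DMSO to 0.74 ± 0.097 after 1 h of LBH589. The ratio of Aff1 to Aff4 went from 0.62 ± 0.034 in DMSO to -0.88 ± 0.052 with A485, and with LBH589 from 0.51 ± 0.038 in DMSO to 0.53 ± 0.061, where the libraries overlapped. For Ccnt2 over Ccnt1 it went from -0.66 ± 0.054 in DMSO to -0.99 ± 0.1 with A485 and from -0.88 ± 0.029 in DMSO to -0.99 ± 0.037 with LBH589. In 5 of these 6 tests the libraries did not overlap, and each of the 5 gave p = 0.1 in a two-sided exact permutation test, the smallest that 3 against 3 allows (0.12 after Benjamini-Hochberg over the 6). The exception, Aff1 over Aff4 with LBH589, gave an exact p of 0.7. How often ratios of other gene pairs separate in this way was not counted. By limma 62.6% of all genes were called at 1 h of A485 and 67.0% at 1 h of LBH589, so the 5 are not shown to be particular to these pairs.

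Across the 23 groups, with log2 group means centred within each table, the 36 pairs among the 9 genes had a median Pearson r of 0.28, from -0.63 to 0.89. The closest pair was Aff1 with Ell2 (r = 0.89), followed by Ccnt1 with Larp7 (0.74), Ccnt2 with Ell2 (0.73) and Ccnt2 with Aff1 (0.70). Hexim1 ran against Aff4 (-0.63), Ell2 (-0.55) and Aff1 (-0.41). These groups share control libraries, scaling and depth, so the correlations describe the tables only. Of 12117 genes tested in all 4 tables, those most like Hexim1 were Pdzd11 (0.92), Thap7 (0.91), Pnn (0.91), Mrpl9 (0.90) and Cox14 (0.90). Those most like Cdk9 were Ywhah (0.88), Pcnp (0.88) and Cfl1 (0.87). Over the 22 comparisons, Hexim1 was called higher 4 times and lower 0 times, Cdk9 higher 0 times and lower 3, Ccnt2 0 and 5, Ell2 3 and 6, and Aff1 7 and 3. Many of these comparisons share controls.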

How the data were processed

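The authors deposited DESeq2-normalized gene counts, read here as a signal: per the submitters' processing notes the tools were Bowtie2 2.2.2, SAMtools 1.16.1, featureCounts 2.0.1 and DESeq2 1.46.0, with builds mm39 and dm3. Strand use is not given in the sources used here, nor is the region counted. Each table held 25857 transcripts; of each symbol the transcript with the highest mean was kept. Tables were normalized separately and tested separately.

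Genes whose mean reached 10 were tested on log2(value + 1) with limma 3.58.1 (R 4.3.3; all groups of a table in 1 fit, trended eBayes, Benjamini-Hochberg over all genes, threshold 0.05), after tests on simulated data. In that simulation limma made more false calls than edgeR for the shallow A485 1 h libraries; on the data edgeR called as many members there. Dividing each column by the value of 1 read gave whole reads for 100% of values within 0.1, and edgeR 4.0.16 and DESeq2 1.42.0 were run on these. Every change is on the log2(value + 1) scale, which understates that of low genes.

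The time course table had 22 library names over 21 columns with values, so 3 per-sample columns were not used and the washout 1 h and 2 h columns were used by group only. The time course libraries labelled degrader 1 h and 2 h carry conflicting labels and were placed by library name.

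The 9 genes and all lists were chosen with earlier results of these data known. All 9 are named throughout. Of the wider list, up to 3 rises and 3 falls per main comparison are named, and the called partners of the 7SK particle and super elongation complex, 1 of which is not reported here. Beside 22 comparisons, 5 were added after the values were seen. Alternatives changed the test, pseudocount, filter, scaling, transcript, groups fitted, libraries and replicate block. Likeness is Pearson's r of group means.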

Additional observations from a re-analysis of the deposited data

Results flagged for a closer look

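The degrader response of Ccnt1 at 30 min differed with and without A485 by an interaction of 0.1751 on the log2 scale (limma, adjusted p = 0.0417). For Ccnt1 and Ell, every degrader library at 30 min and 1 h lay above the DMSO mean in the time course and below it in the A485 series; these differences were not tested, since the tables were normalized separately. For Ccnt1 the log2 change in the time course minus that in the A485 series was 0.1297 at 30 min and 0.1446 at 1 h. For Ell it was 0.3725 at 30 min and 0.09443 at 1 h. The 30 min values of both genes include the time course library that stood apart. For Ell it held 5228 reads against 3636 and 3613 in the others of its group, and for Ccnt1 7511 against 6670 and 6644. Without the pair that stood apart, the time course change at 30 min went from 0.19 to 0.01 for Ell and from 0.09 to 0.03 for Ccnt1.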

How the results depend on the processing

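No called change of a member reversed under any alternative run. Leaving out 1 library kept 1397 of 1485 values on their side of the threshold, with 65 lost and 23 gained; the other alternatives kept 2609 of 2673, with 15 lost and 49 gained. Members called moved with the libraries used in the time course: without the pair that stood apart the counts were 3, 3, 3 and 3 for degrader 15 min, 30 min, 1 h and 2 h, 9 and 4 for washout 30 min and 2 h against degrader 2 h, and 7 for washout 2 h against 30 min. With only the groups compared in the fit these were 0 at 30 min, 2 at 1 h, 1 at 2 h, 9, 5 and 7. The interaction at 30 min went from 1 to 0 with edgeR or only the groups compared, and at 1 h from 0 to 1 with pseudocount 10, a mean of at least 100, TMM or only the groups compared. A485 1 h against 30 min went from 2 to 1 with edgeR, DESeq2, only the groups compared or the replicate block. The cause was not tested. Over the leave-one-out fits the counts for degrader 15 min, 30 min, 1 h and 2 h in the time course were 0 to 2, 1 to 3, 0 to 0 and 0 to 0. For washout 30 min and 2 h against degrader 2 h they were 0 to 0 and 1 to 1, for washout 2 h against DMSO 1 to 2 and against 30 min 3 to 3. In the A485 series they were 2 to 2, 2 to 3 and 1 to 3 for the degrader, 4 to 6, 5 to 6 and 6 to 7 for A485, 0 to 0 for both agents against A485, and 0 to 0, 0 to 1 and 0 to 1 for the interactions. In the added comparisons there they were 2 to 2, 1 to 2 and 3 to 5. For LBH589 they were 5 to 6 at 30 min, 8 to 8 at 1 h, 5 to 7 between these times and 0 to 4 in its washout series.

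Libraries with the same number did not pair: the lowest correlation of their deviations was -0.402 in the time course and 0.0177 in the LBH589 washout series. With the replicate block Ell at washout 30 min against degrader 2 h went to an adjusted p of 0.0712 and Cdk9 at A485 1 h against 30 min to 0.0668, while Larp7 in the LBH589 washout series was called (0.0333); it changed no other call of a member. Counts of all genes called, with the lowest and highest over the alternatives, moved by over 1.5 times in at least 1 alternative of every comparison. For the degrader at the 4 times of the time course they were 881 (587 to 3536), 1764 (508 to 2679), 1435 (962 to 3844) and 1195 (547 to 3951). For washout 30 min and 2 h against degrader 2 h they were 3091 (0 to 6480) and 2198 (614 to 6285), and for washout 2 h against DMSO and 30 min 4897 (2551 to 7537) and 5773 (3521 to 9298). At the 3 times of the A485 series they were 2098 (1398 to 3534), 2592 (1855 to 4035) and 3220 (2388 to 5101) for the degrader, 6941 (6223 to 11030), 7323 (6182 to 11694) and 7889 (6991 to 12551) for A485, 111 (71 to 175), 228 (69 to 447) and 869 (390 to 1378) for both agents and 670 (414 to 1227), 1033 (498 to 1476) and 1453 (975 to 2238) for the interactions. They were 4978 (4051 to 7872) and 8412 (7676 to 13442) for LBH589 and 2879 (861 to 4492) for its washout. The highest of A485 and LBH589 came from testing all transcripts, which counts more features. Another scaling (TMM) moved the median of all genes by less than 0.1. Both scalings centre the bulk of the genes, so a shift common to all genes was not tested. Depth limits Hexim1 and Larp7 most, which had the lowest reads of the 9.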
